A study of Rattus norvegicus with 6 samples.

Results

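The lysosome and autophagy genes described here are 42 genes chosen by symbol. They comprise 28 genes of lysosomal hydrolases, lumenal proteins and membrane proteins, 2 MiT/TFE transcription factors and 12 genes of autophagosome formation and cargo binding. All 42 were found among the 29468 gene symbols of the tables, and all 42 were high enough to be tested. Schwann cell precursors (SCPs) were compared with repair Schwann cells (RSCs), with 3 samples of each, both from LEWIS rats that the labels give as wild type. The study's methods describe LEWIS rats expressing RFP throughout the body as the source of the grafted cells, and do not separately name the source of the cells used for RNA. The SCPs were untreated cells from the sciatic nerves and brachial plexus of both sides at embryonic day 14. The RSCs came from the distal segments of sciatic nerves of 10-week-old rats, 1 week after the nerve was cut (the study's methods give 8 to 10 weeks). Both were dissociated with enzymes and pipetting, but not in the same way. By the study's methods, the adult nerves were freed of their outer sheath and cut into pieces. They were then digested for longer and with more collagenase than the embryonic nerves. A short plating in uncoated flasks, meant to leave behind adhesive cells such as fibroblasts and macrophages, preceded RNA extraction. The groups thus differed in age, in injury, in the nerves sampled and in the digestion, and these cannot be told apart. Whether each sample pooled several animals is not given in the sources used here, and p-values measure the spread between these preparations.

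Lysosomes are acidic organelles in which hydrolases degrade proteins, lipids and glycans taken up by endocytosis or phagocytosis, or delivered by autophagy. In autophagy, a membrane grows around cytoplasm under the control of the ULK1 and beclin complexes, ATG8 proteins are coupled to it by ubiquitin-like conjugation, and the closed vesicle fuses with a lysosome. TFEB and TFE3 are transcription factors that bind E-boxes of the type CACGTG in promoters of many lysosomal genes. After nerve injury, Schwann cells are known to break down their own myelin by a form of autophagy, and macrophages that enter the nerve are rich in lysosomes and clear myelin as well.

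Expression is given in FPKM, the fragments of a transcript relative to its length and to all mapped fragments of the sample, so that levels can be compared between genes. FPKM of the named transcripts of a gene were summed. Differences are RSC minus SCP on the log2(FPKM + 1) scale from limma, which understates the change of low genes, and fold values are ratios of the mean FPKM. A gene is called higher in a group at an unadjusted p under 0.01, the threshold of the study, and adjusted p-values were obtained by the Benjamini-Hochberg method across the 13003 genes tested. Because Cufflinks also assembled transcripts without a gene name in each sample, part of the expression of 30 of the 42 genes sat in unnamed transcripts at the same locus. A second value with the unnamed transcripts added, and with values still listed at 0 beside at least 5 FPKM in another sample of the group left out, is given where it matters. It was chosen after seeing the data. Cufflinks also gives each estimate a status. For Ctsl, Lgmn, Tpp1, Scarb2 and Ppt1 it was LOWDATA, not OK, in every sample. The same held for Ctss except in SCP replicate 1, and for Gabarap in the SCPs and RSC replicate 2. Some transcripts of Lipa, Lamp1, Mcoln1 and Atg7 were also marked so. Values with this status were kept and are less certain than their p-values show. Read counts are not part of the tables and the depth is therefore unknown. Relative to the deepest sample, coverage for each unit of FPKM lay between 0.88 and 1.00 in the SCPs and between 0.79 and 0.84 in the RSCs.

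The labelled cell type was checked with markers. Sox10, the transcription factor of the Schwann cell lineage, was at 175 to 181 FPKM in the SCPs and 143 to 149 FPKM in the RSCs. S100b, a marker of more mature Schwann cells, was at 3.21 to 19.3 FPKM in the SCPs and 782 to 924 FPKM in the RSCs. Macrophage and leukocyte markers stood far apart between the groups. Of 16 such markers 15 were in the tables, and all 15 were over 4-fold higher in the RSCs, with a median log2 difference of 4.51. Their summed level was 28.1 to 74.4 FPKM in the SCPs and 3168 to 3982 FPKM in the RSCs, 69.8-fold higher. Among the defining ones, Cd163 was listed at 0, 0 and 0.051 FPKM in the SCPs and at 3.51, 9.77 and 5.57 FPKM in the RSCs, and Lyz2 was at 1.995 to 6.04 FPKM in the SCPs and 1468 to 1770 FPKM in the RSCs. Cd68 of this list encodes a lysosomal membrane protein itself. The 6 fibroblast markers summed to 641 to 1020.1 FPKM in the SCPs and 5359.9 to 8011 FPKM in the RSCs, and 5 of them were called higher in the RSCs. In bulk samples, fewer cells of a type and less RNA per cell cannot be told apart. The part of macrophages and fibroblasts in the differences below was not tested. Embryonic blood RNA was present in the SCPs, where 5 erythroid markers took 4.44%, 3.37% and 12.7% of the named FPKM in replicates 1, 2 and 3, against 0.088% to 0.12% in the RSCs. Skeletal muscle markers summed to 66.4, 111 and 278 FPKM in the SCPs and 0.32, 7.87 and 8.71 FPKM in the RSCs. Neuronal markers summed to 26.3 to 48.5 FPKM against 17.5 to 23.9 FPKM. Endothelial markers were higher in the RSCs, at 31.4 to 47.2 against 63.1 to 67.7 FPKM, and the mural marker sums overlapped.

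**Figure D1:**
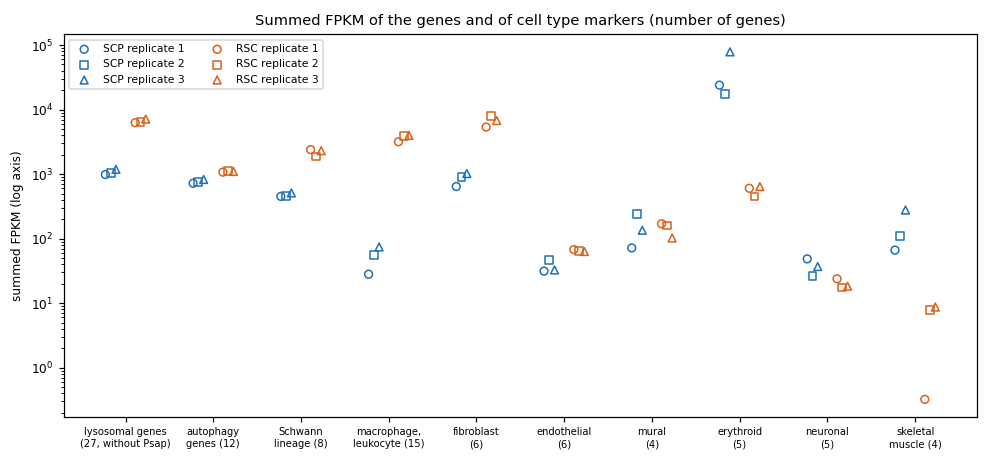
Summed FPKM (log axis) of the 27 lysosomal genes other than Psap, of the 12 autophagy genes and of markers of 8 cell types, with 1 symbol for each of the 3 SCP samples (blue) and 3 RSC samples (orange). The lysosomal genes sum to 984 to 1184 FPKM in the SCPs and 6258 to 7119 FPKM in the RSCs, and the macrophage and leukocyte markers differ more, at 28.1 to 74.4 against 3168 to 3982 FPKM.

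The lysosomal genes were higher in the RSCs as a group, and the autophagy genes mostly showed small differences. Of the 42 genes, 26 were called higher in the RSCs, 1 was called higher in the SCPs and 15 were not called. Over all genes tested, 40.5% were called, 18.1% higher in the RSCs and 22.4% higher in the SCPs. A difference of over 4-fold at this p was found for 14 of the 42 genes, all higher in the RSCs, where 7.81% of all genes were this much higher in the RSCs and 3.78% in the SCPs. The 3 RSC values lay above the 3 SCP values in 29 genes and below them in 2, against 24.9% and 33.7% of all genes. The median log2 difference of the 42 genes was 1.499, against -0.17 for all genes. Among the 28 lysosomal genes 22 were called higher in the RSCs and none in the SCPs, with a median of 2.13. Among the 12 autophagy genes 2 were called higher in the RSCs and 1 in the SCPs, with a median of 0.24. With the unnamed transcripts added, 27 of the 28 lysosomal genes and 5 of the 12 autophagy genes were called higher in the RSCs. Over the 42 genes this made 33 higher in the RSCs and 2 higher in the SCPs, where 59.3% of all genes were called, 23.9% higher in the RSCs and 35.3% higher in the SCPs. Of the 33, 18 were over 4-fold higher, against 8.99% of all genes in this direction and 5.02% in the other. The groups lay apart with the RSCs higher in 35 genes and lower in 2, against 28.8% and 43.6% of all genes.

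**Figure D2:**
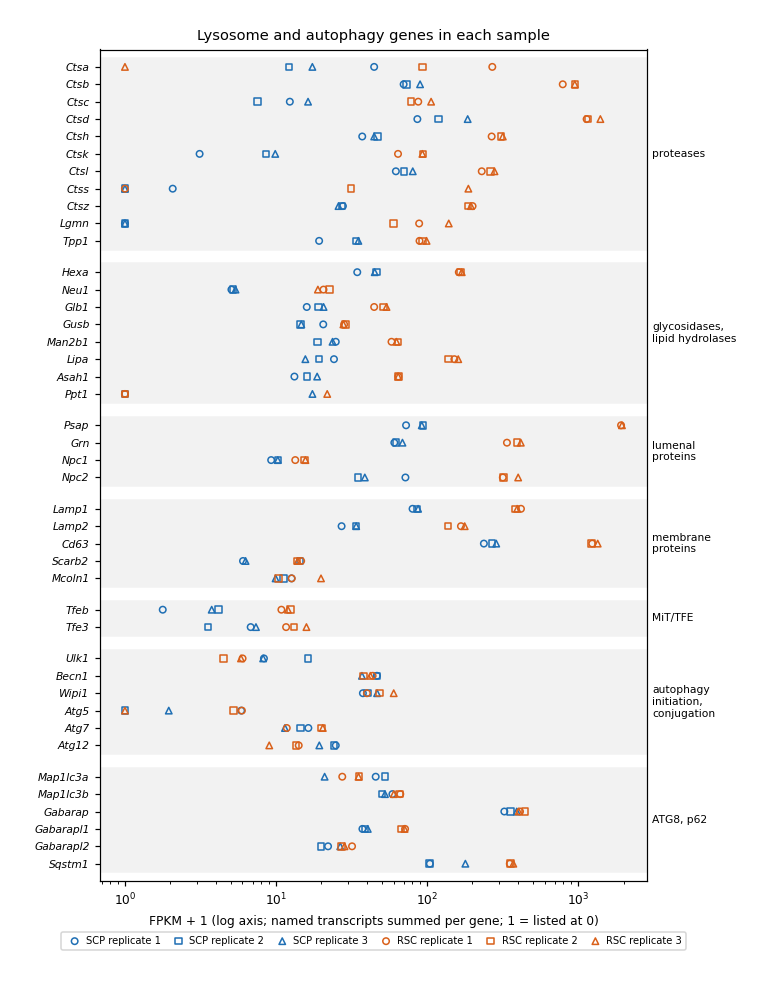
FPKM + 1 (log axis) of the named transcripts of each of the 42 genes in the 3 SCP samples (blue) and 3 RSC samples (orange), grouped by role. A symbol at 1 is a value listed at 0, and Psap in RSC replicate 2, whose estimate failed, is not drawn. The 3 RSC values lie above the 3 SCP values in 29 genes and below them in 2.

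The sum of FPKM over the 27 lysosomal genes other than Psap was 984, 1036 and 1184 in the SCPs and 6258, 6337 and 7119 in the RSCs (values are listed by replicate throughout, from 1 to 3). The groups lay apart, and the sum was 6.15-fold higher in the RSCs. These genes took 0.183% to 0.199% of the named FPKM in the SCPs and 1.25% to 1.35% in the RSCs. The 12 autophagy genes summed to 721, 754 and 826 FPKM in the SCPs and 1073, 1116 and 1098 FPKM in the RSCs, 1.43-fold higher. SCP replicate 3, with the most embryonic globin RNA and the highest macrophage marker sum of its group (74.4 FPKM), had the highest value of its group for 19 of the 36 genes that were above 0 in every sample. SCP replicate 1, with the lowest macrophage marker sum (28.1 FPKM), had the lowest value of its group for 20 of them. RSC replicate 1, with the lowest macrophage marker sum of its group (3168 FPKM), had the lowest value for 18 of them. The fibroblast marker sum was also lowest of its group in SCP replicate 1 (641 FPKM) and RSC replicate 1 (5360 FPKM). It was highest in SCP replicate 3 (1020 FPKM) and RSC replicate 2 (8011 FPKM). Whether the order of the samples follows any of these markers was not tested.

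E-boxes were searched in the promoters of these genes, from 250 bases before to 50 bases after the gene start, since they are the sites that TFEB and TFE3 are known to bind. RefSeq promoters on GRCr8 were at hand for 35 of the 42 genes (not for Ctsb, Hexa, Asah1, Ppt1, Psap, Becn1 and Map1lc3a). CACGTG, which reads the same on both strands, was found in 6 of the 35 (17.1%), namely Atg5, Cd63, Ctsd, Glb1, Lamp1 and Mcoln1, and in 6.42% of all 33469 promoters. The longer TCACGTG, which contains CACGTG, was found on either strand in 4 of them (11.4%), Ctsd, Glb1, Lamp1 and Mcoln1, and in 3.20% of all promoters. The promoters of the 3 genes that held TCACGTG and were called higher in the RSCs are shown because they carry these sites. They are written 5′ to 3′ on the strand of the gene, with CACGTG and a flanking T before it or A after it in capitals. Ctsd lies at chr1:206968772-206969071 on the minus strand, Glb1 at chr8:122963468-122963767 on the plus strand and Lamp1 at chr16:83075014-83075313 on the minus strand.
Ctsd: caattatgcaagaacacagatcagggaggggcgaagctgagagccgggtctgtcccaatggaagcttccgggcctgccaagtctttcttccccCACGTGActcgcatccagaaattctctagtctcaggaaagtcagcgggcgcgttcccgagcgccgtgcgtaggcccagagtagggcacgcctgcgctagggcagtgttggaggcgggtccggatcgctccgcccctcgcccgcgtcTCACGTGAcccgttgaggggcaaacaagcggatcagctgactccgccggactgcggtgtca
Glb1: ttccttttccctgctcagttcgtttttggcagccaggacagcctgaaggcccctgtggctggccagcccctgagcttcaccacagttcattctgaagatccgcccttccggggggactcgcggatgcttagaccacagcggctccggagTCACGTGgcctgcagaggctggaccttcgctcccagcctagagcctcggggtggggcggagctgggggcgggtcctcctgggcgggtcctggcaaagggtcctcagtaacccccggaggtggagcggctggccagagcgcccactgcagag
Lamp1: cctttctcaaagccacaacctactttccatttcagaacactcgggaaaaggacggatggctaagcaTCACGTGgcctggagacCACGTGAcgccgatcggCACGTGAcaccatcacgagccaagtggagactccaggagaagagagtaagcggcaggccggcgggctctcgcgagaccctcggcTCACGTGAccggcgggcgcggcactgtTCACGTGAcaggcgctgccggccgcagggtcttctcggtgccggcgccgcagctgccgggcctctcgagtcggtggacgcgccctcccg
The Lamp1 promoter held 5 copies of CACGTG, beginning 183, 167, 150, 65 and 38 bases before the gene start. The Ctsd promoter held 2 copies, 157 and 10 bases before the start, and the Glb1 promoter held 1 copy, 100 bases before it. Mcoln1, the lysosomal cation channel, also held 2 copies and was not called, with a log2 difference of 0.30. A match is a stretch of letters and does not show binding.

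Proteases had the largest median difference among the roles. Of the 11 cathepsin and other protease genes, 9 were called higher in the RSCs, 7 of them over 4-fold, and the median log2 difference was 2.97. Summed over the 11 genes, the FPKM was 355 to 497 in the SCPs and 3219 to 3765 in the RSCs, 8.30-fold higher. Ctsd, the main aspartic protease of lysosomes (chromosome 1 from 215541570 to 215553446 of rn6), was at 85.3, 118 and 185 FPKM in the SCPs and at 1138, 1163 and 1404 FPKM in the RSCs. Every RSC value lay far above every SCP value, and the difference was 9.55-fold with a log2 difference of 3.31 (standard error 0.28, adjusted p = 0.00032). Ctsb, a cysteine protease found in most cells (chromosome 15 from 46316741 to 46337613), was at 69.0, 72.0 and 88.9 FPKM in the SCPs and 791, 950.4 and 950.3 FPKM in the RSCs. This was an 11.7-fold difference with a log2 difference of 3.54 (standard error 0.13, adjusted p = 2.5e-05). In both groups Ctsd and Ctsb were among the most abundant of the 42 genes.

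Ctsk, a cathepsin known for collagen breakdown by osteoclasts (chromosome 2 from 196655469 to 196666447), was at 2.12, 7.57 and 8.89 FPKM in the SCPs and 63.3, 92.7 and 92.2 FPKM in the RSCs. Its log2 difference was 3.68 (standard error 0.46, adjusted p = 0.0014). The SCP values of Ctsk with the unnamed transcripts added were 4.92, 13.1 and 11.01 FPKM, and the ratio was 8.56 in place of 13.4. Ctsc, the dipeptidyl peptidase that activates serine proteases of leukocyte granules, was at 11.3, 6.55 and 15.3 FPKM in the SCPs and 86.5, 77.2 and 105 FPKM in the RSCs, 8.11-fold higher (log2 difference 2.97, adjusted p = 0.00061). Ctsz, a carboxypeptidase, varied least, at 26.7, 26.3 and 24.9 FPKM against 199, 186 and 194 FPKM, a 7.44-fold difference (log2 difference 2.85, standard error 0.07, adjusted p = 1.2e-05). Ctsh, an aminopeptidase, was at 36.2, 46.0 and 43.7 FPKM in the SCPs and 267, 307 and 316 FPKM in the RSCs, 7.08-fold higher (log2 difference 2.80, adjusted p = 3.7e-05). The remaining called proteases with values in all samples were under 4-fold on the log2 scale. Ctsl, a cysteine endopeptidase, was at 61.2, 69.5 and 79.4 FPKM against 229, 263 and 279 FPKM (log2 difference 1.86, adjusted p = 0.00014). The log2 difference of Ctsl was 1.57 with the unnamed transcripts added. Tpp1, the tripeptidyl peptidase lost in a form of childhood neuronal ceroid lipofuscinosis, was at 18.3, 32.9 and 34.1 FPKM against 88.2, 92.2 and 98.3 FPKM (log2 difference 1.72, adjusted p = 0.0023).

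Lgmn, Ctsa and Ctss were listed at 0 in some samples, in which unnamed transcripts were assembled at the same loci. Lgmn, the asparaginyl endopeptidase legumain that also matures cathepsins (chromosome 6 from 126282246 to 126308207), had a listed value of 0 in all 3 SCPs and at 87.7, 59.1 and 138 FPKM in the RSCs. Lgmn is 1 of the 7 proteases over 4-fold, and no fold is given against values listed at 0. Lgmn with the unnamed transcripts added was at 16.8, 21.2 and 25.7 FPKM in the SCPs and 219.6, 260.3 and 287 FPKM in the RSCs, 12.05-fold higher (log2 difference 3.54, standard error 0.17, adjusted p = 1.3e-05). Ctsa, the carboxypeptidase that protects the sialidase Neu1 and beta-galactosidase (chromosome 3 from 161298533 to 161304627), was at 43.7, 11.1 and 16.4 FPKM in the SCPs and 269, 92.0 and 0 FPKM in the RSCs by named transcripts. The groups overlapped and Ctsa was not called. Counting the unnamed transcripts, Ctsa was at 43.7, 61.5 and 60.1 FPKM against 472, 452 and 541 FPKM, 8.86-fold higher (log2 difference 3.14, adjusted p = 1.2e-05). The Ctsa transcripts overlap those of Pltp, a phospholipid transfer protein, by 159 bases, and Pltp was listed at 290.5, 432 and 0 FPKM in the RSCs. How the reads of the overlap were divided is not known. Ctss, a cathepsin of antigen-presenting cells (chromosome 2 from 197655780 to 197679768), had named values of 1.07, 0 and 0 FPKM in the SCPs and 0, 30.5 and 187 FPKM in the RSCs and was not called. Counting the unnamed transcripts, Ctss was at 1.07, 6.60 and 3.88 FPKM against 205, 228 and 255 FPKM. The ratio of 59.6 was the largest of the 42 genes in this fit. The log2 difference of Ctss was 5.76 (adjusted p = 8.0e-05). In the same fit the 15 macrophage and leukocyte markers ranged from 3.14 to 8.25, with a median of 4.62. The part of macrophages in the Ctss difference was not tested.

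**Figure D3:**
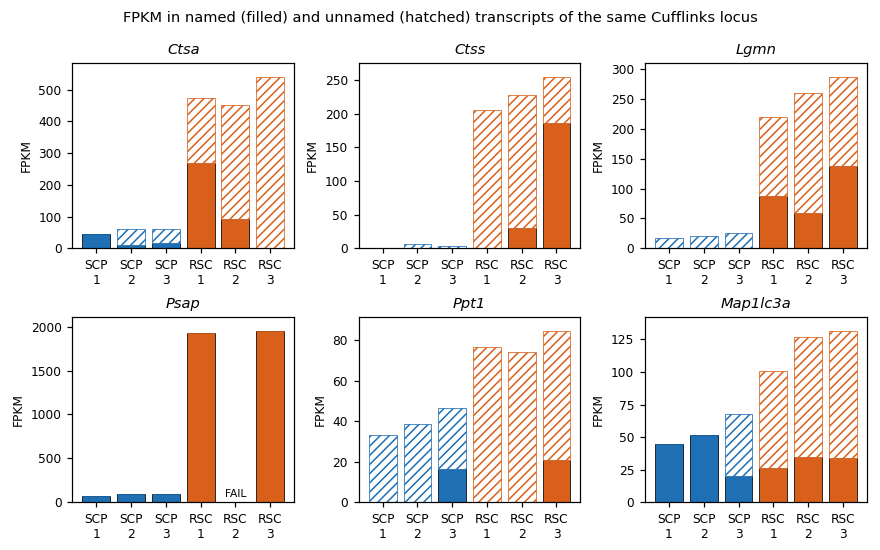
FPKM of 6 genes in each sample, with named transcripts as filled bars and unnamed transcripts of the same Cufflinks locus as hatched bars (SCP blue, RSC orange, 1 bar per sample). In Ctsa, Ctss and Lgmn the summed bars of the 3 RSCs all stand above those of the 3 SCPs, while the named part varies from sample to sample in the RSCs. FAIL marks the Psap estimate that failed in RSC replicate 2.

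The glycosidases and lipid hydrolases were called higher in the RSCs in 7 of 8 cases, with a median log2 difference of 1.73 and 2 genes over 4-fold. Lipa, the acid lipase that releases cholesterol and fatty acids from lipoprotein lipids (chromosome 1 from 252816536 to 252870302), differed most, with 23.2, 18.3 and 14.6 FPKM in the SCPs and 151, 138 and 159.9 FPKM in the RSCs. The groups lay far apart, and the ratio was 7.99 (log2 difference 2.95, standard error 0.17, adjusted p = 8.5e-05). Asah1, acid ceramidase, was at 12.2, 15.1 and 17.7 FPKM against 63.5, 63.9 and 63.4 FPKM, 4.23-fold higher (log2 difference 2.03, adjusted p = 0.00017). The Asah1 values of the RSCs were almost level. Hexa, the alpha subunit of the hexosaminidase that degrades GM2 ganglioside, was at 33.5, 45.2 and 44.0 FPKM against 161, 165 and 169 FPKM, a 4.04-fold ratio of means, with a log2 difference on log2(FPKM + 1) of 1.999, just under the line of 2 (adjusted p = 0.00012). Neu1, which removes sialic acids, was at 4.07, 4.17 and 4.39 FPKM against 19.6, 21.6 and 17.9 FPKM, a 4.68-fold ratio, with a log2 difference of 1.99 (adjusted p = 0.00015). Neu1 came to 2.31 when the unnamed transcripts were added. Man2b1, a lysosomal mannosidase, was at 23.9, 17.9 and 22.7 FPKM in the SCPs and 57.2, 63.3 and 61.7 FPKM in the RSCs, 2.83-fold higher (log2 difference 1.47, adjusted p = 0.00039). Glb1, beta-galactosidase, whose promoter is printed above, was at 14.99, 18.2 and 19.7 FPKM in the SCPs and 43.7, 50.4 and 52.9 FPKM in the RSCs, 2.78-fold higher (log2 difference 1.43, adjusted p = 0.00052). Gusb, beta-glucuronidase, had the smallest called difference of the role, 1.76-fold (log2 difference 0.79, adjusted p = 0.0094). Gusb fell to 0.45 (adjusted p = 0.0018) when the unnamed transcripts were added. Ppt1, which removes palmitate from proteins, was listed at 0, 0 and 16.4 FPKM in the SCPs and 0, 0 and 20.8 FPKM in the RSCs. Counting the unnamed transcripts, Ppt1 was at 33.0, 38.7 and 46.5 FPKM against 76.4, 74.2 and 84.4 FPKM, 1.99-fold higher (log2 difference 0.98, adjusted p = 0.00083).

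Among the lumenal and cholesterol export proteins, Psap needs care. Psap encodes the precursor of the saposins, small proteins that present sphingolipids to hydrolases (chromosome 20 from 29831302 to 29856876). It was at 71.6, 93.2 and 91.3 FPKM in the SCPs and at 1925 and 1951 FPKM in RSC replicates 1 and 3. In RSC replicate 2 all 5 of its transcripts are marked as failed in the table and listed at 0, so this value is no measurement. With that sample kept the log2 difference was 0.86 and Psap was not called. Leaving it out, which leaves 2 RSC values, gave a ratio of 22.7 and a log2 difference of 4.50 (standard error 0.13, adjusted p = 8.1e-06, in the fit that also adds unnamed transcripts), and these 2 values were the highest of all 42 genes. Grn, the precursor of granulins (chromosome 10 from 90377103 to 90383207), was at 59.7, 61.5 and 67.7 FPKM in the SCPs and 337, 394 and 417 FPKM in the RSCs, 6.07-fold higher (log2 difference 2.58, standard error 0.10, adjusted p = 3.0e-05). Npc2 and Npc1 act in sequence to move cholesterol out of the lysosome. Npc2, the soluble carrier, was at 70.9, 33.9 and 37.7 FPKM against 317, 319 and 400.2 FPKM, 7.27-fold higher (log2 difference 2.90, adjusted p = 0.00059). Counting the unnamed transcripts, Npc2 was at 86.0, 87.4 and 78.1 FPKM against 317, 979 and 400.2 FPKM (log2 difference 2.56, adjusted p = 0.0016). Of the value in RSC replicate 2, 659.5 FPKM came from 1 unnamed transcript of 253 bases. Npc1, the membrane partner, was 1.54-fold higher, with a log2 difference of 0.57 (adjusted p = 0.014).

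Of the 5 lysosomal membrane proteins, the 3 most abundant were over 4-fold higher in the RSCs and the other two were not called. Lamp1, a main glycoprotein of the lysosomal membrane (chromosome 16 from 81689576 to 81706561), whose promoter above held 5 E-boxes, was at 79.2, 85.1 and 86.3 FPKM in the SCPs and 418, 384 and 394 FPKM in the RSCs. The spread within each group was small, and Lamp1 was 4.77-fold higher (log2 difference 2.24, standard error 0.07, adjusted p = 1.9e-05). Lamp2, its partner that also serves in autophagosome fusion and in uptake of single proteins (chromosome X from 124722628 to 124766075), was at 26.2, 32.8 and 33.0 FPKM against 167, 136 and 177 FPKM, 5.22-fold higher (log2 difference 2.34, adjusted p = 0.0001). Cd63, a tetraspanin of late endosomes and exosomes (chromosome 7 from 3320250 to 3335581), was at 237, 268 and 286 FPKM against 1240.1, 1223 and 1348 FPKM, 4.82-fold higher (log2 difference 2.27, adjusted p = 2.9e-05). Scarb2, the receptor that carries glucocerebrosidase to lysosomes, had a log2 difference of 0.79 (adjusted p = 0.12) by named transcripts and 0.91 (adjusted p = 0.0061) with the unnamed ones. Mcoln1 had a log2 difference of 0.30 (adjusted p = 0.4).

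The 2 named transcripts of Lamp2 were both at higher levels in the RSCs. The shorter one, of 1747 bases, was at 13.9, 17.1 and 18.8 FPKM in the SCPs and 130.3, 108 and 149 FPKM in the RSCs. The longer one, of 3537 bases, was at 12.3, 15.6 and 14.1 FPKM in the SCPs and 36.4, 28.0 and 27.9 FPKM in the RSCs. Of the named Lamp2 FPKM the shorter one held 53.0%, 52.3% and 57.1% in the SCPs and 78.2%, 79.4% and 84.2% in the RSCs. RSC replicate 2 also held an unnamed Lamp2 transcript of 56.7 FPKM, and with it counted the share in that sample was 56.1%, inside the SCP range. The shares thus overlap between the groups once unnamed transcripts are counted. Lamp2 was picked after its values were seen, and no test was run on the shares.

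The MiT/TFE factors were both called higher in the RSCs at low levels. Tfeb (chromosome 9 from 15208141 to 15263966) was at 0.78, 3.16 and 2.75 FPKM in the SCPs and 9.86, 11.4 and 10.99 FPKM in the RSCs, 4.83-fold higher in FPKM (log2 difference 1.96, standard error 0.35, adjusted p = 0.0058). Tfe3 (chromosome X from 15574579 to 15587807) was at 5.80, 2.55 and 6.37 FPKM against 10.7, 12.1 and 14.9 FPKM (log2 difference 1.26, standard error 0.32, adjusted p = 0.021). The log2 difference of Tfe3 was 0.51 (unadjusted p = 0.015) when unnamed transcripts were counted and no longer passed the threshold. Levels of RNA say nothing of where these factors were in the cell, which is known to govern their activity.

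Genes that start autophagy or conjugate ATG8 proteins showed no common direction. Of the 6, none was called higher in the RSCs, 1 was called higher in the SCPs and the median log2 difference was 0.08. Atg12, the ubiquitin-like protein that is joined to Atg5 (chromosome 18 from 40721799 to 40732126), was 23.9, 23.3 and 18.4 FPKM in the SCPs and 13.1, 12.5 and 8.02 FPKM in the RSCs, with a log2 difference of -0.92 (standard error 0.22, adjusted p = 0.016). Ulk1, the kinase that starts autophagy, lay lower in all RSCs, with a log2 difference of -0.94 that did not pass (unadjusted p = 0.027), and with the unnamed transcripts it was -0.88 and did (unadjusted p = 0.0095). Becn1, the regulatory subunit of the lipid kinase complex, and Wipi1, which binds the lipid this complex makes, had log2 differences of -0.07 and 0.24. Atg5 was listed at 4.88, 0 and 0.95 FPKM in the SCPs and 4.95, 4.22 and 0 FPKM in the RSCs. With the unnamed transcripts Atg5 was at 8.95, 8.21 and 7.41 FPKM against 12.1, 10.995 and 13.7 FPKM, 1.498-fold higher (log2 difference 0.53, adjusted p = 0.0095). Atg7, the activating enzyme of both conjugation systems, had a log2 difference of 0.27 by named transcripts, and 0.66 with the unnamed ones, which passed (unadjusted p = 0.0088).

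ATG8 proteins mark the autophagosome and hold cargo receptors such as p62, the product of Sqstm1. Of these 6 genes, Sqstm1 and Gabarapl1 were called higher in the RSCs. Sqstm1 (chromosome 10 from 35704728 to 35716316) was at 103, 103 and 178 FPKM in the SCPs and 352, 355 and 372 FPKM in the RSCs, 2.80-fold higher (log2 difference 1.53, standard error 0.22, adjusted p = 0.0025). Gabarapl1 (chromosome 4 from 163293724 to 163302866) was at 36.3, 37.8 and 39.5 FPKM against 70.6, 66.5 and 70.0 FPKM, 1.82-fold higher (log2 difference 0.85, standard error 0.08, adjusted p = 0.00042). Gabarap was the most abundant of the 42 genes in the SCPs, at 324, 356 and 392 FPKM, and stood at 412, 446 and 403 FPKM in the RSCs. The Gabarap groups did not overlap, but the difference was small and did not pass (log2 difference 0.24, unadjusted p = 0.039). Map1lc3b, the LC3 protein most used to follow autophagy, was at 58.0, 49.2 and 51.7 FPKM against 65.5, 64.9 and 59.2 FPKM (log2 difference 0.25, unadjusted p = 0.038). Gabarapl2 was at 21.1, 18.9 and 25.6 FPKM against 30.9, 26.2 and 27.4 FPKM (log2 difference 0.36, unadjusted p = 0.048). Map1lc3a (chromosome 3 from 150801289 to 150802935) was at 44.7, 51.8 and 20.0 FPKM in the SCPs and 26.5, 34.4 and 34.2 FPKM in the RSCs, with a log2 difference of -0.19 (unadjusted p = 0.62). With the unnamed transcripts Map1lc3a was at 44.7, 51.8 and 67.6 FPKM against 100.5, 126 and 131 FPKM, 2.18-fold higher in the RSCs (log2 difference 1.12, adjusted p = 0.0016), so its direction depends on which transcripts are counted.

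**Figure D4:**
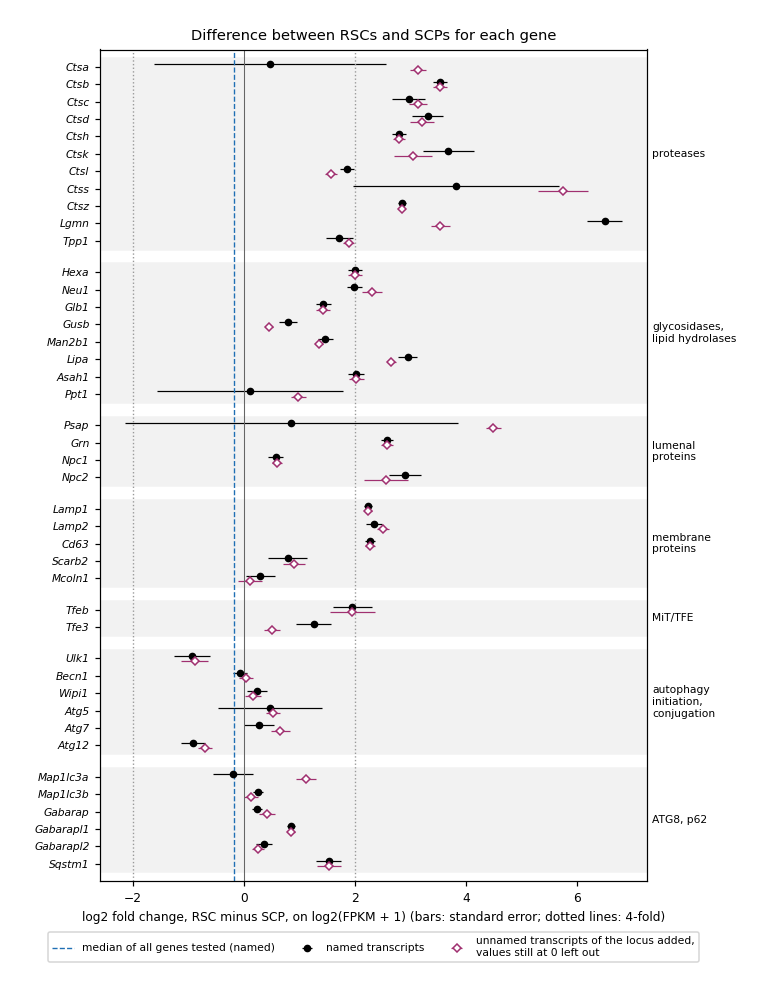
Log2 difference (RSC minus SCP, on log2(FPKM + 1)) with its standard error for each of the 42 genes, from named transcripts (black circles) and with the unnamed transcripts of the locus added and remaining zeros left out (open diamonds). Dotted lines mark 4-fold and the dashed line the median of all genes, -0.17. The medians are 2.97 for the proteases and 0.08 for autophagy initiation and conjugation, and Ctsa, Ctss, Lgmn, Psap, Ppt1 and Map1lc3a move most between the 2 estimates.

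In the order of levels within the RSCs, Psap (2 samples) was followed by Cd63 and Ctsd, whose values overlapped, then by Ctsb, which lay below both. Gabarap and Lamp1 came next, and their values overlapped as well. In the SCPs the order began with Gabarap, Cd63, Ctsd and Sqstm1, and the values of Ctsd and Sqstm1 overlapped.

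Other genes of these pathways were counted from 7 lists. Of the 25 tested acid hydrolases and activators outside the 42 genes, 17 were called higher in the RSCs, 8 of them over 4-fold, and none higher in the SCPs, with a median log2 difference of 1.56. Naglu, which degrades heparan sulfate, and Dnase2, the acid DNase, had the largest, 3.51 and 3.38, and Naglu was 1.94 with the unnamed transcripts added. Smpd1, acid sphingomyelinase, had one of the smaller called ones, 0.95. Among 12 other lysosomal membrane proteins, 7 were called higher in the RSCs and 1 higher in the SCPs. Laptm5, a protein of leukocyte lysosomes, had a log2 difference of 4.52 and Ostm1 of 2.33, while Cln3 had 0.75 and Spns1, a lysosomal lipid transporter, -0.94, which with the unnamed transcripts was -0.30 and not called. The V-ATPase pumps protons into the lysosome. Of 15 tested subunit genes, 9 were called higher in the RSCs and none in the SCPs, all under 4-fold, with a median of 0.60. Atp6v0e1 and Atp6ap2 differed most, by 1.63 and 1.54 on the log2 scale, and Atp6v1g1 and Atp6v1a least among those called, by 0.39 and 0.47.

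Genes that tag and sort hydrolases by mannose 6-phosphate moved in both directions, with 4 of 9 called higher in the RSCs and 3 higher in the SCPs. M6pr, the small mannose 6-phosphate receptor, was at 31.3 ± 1.76 FPKM in the SCPs and 90.5 ± 8.22 FPKM in the RSCs (SD, n = 3 each), a log2 difference of 1.5002. Igf2r, the large receptor, which also clears the growth factor IGF2, was at 129 ± 14.6 FPKM in the SCPs and 42.1 ± 4.09 FPKM in the RSCs, a log2 difference of -1.59. The 2 receptors for the same tag thus differed in opposite directions. Nagpa, which uncovers the tag, had a log2 difference of 1.29, and Gga3, a sorting adaptor, of -1.29. Among 23 other autophagy genes, 3 were called higher in the RSCs and 2 higher in the SCPs, with a median of -0.06. Counting the unnamed transcripts, 5 of these 23 were called higher in the RSCs and 6 higher in the SCPs. The 2 largest were the cargo receptors Optn, at 1.46 ± 1.24 FPKM in the SCPs and 26.03 ± 1.71 FPKM in the RSCs (log2 difference 3.57, and 2.60 with the unnamed transcripts), and Tax1bp1 (1.41). The 2 smallest were the protease Atg4b (-0.91) and the lipid-binding Wipi2 (-0.55). Of 12 genes of autophagosome-lysosome fusion, 4 were called higher in the RSCs and none in the SCPs, with Vamp7 (1.46), Rab7a (1.14), Snap29 (0.73) and Vps41 (0.64). Of 18 tested genes of other MiT/TFE factors and lysosomal mTORC1 control, 2 were called, Lamtor4 (1.02) and Rragc (0.92), both higher in the RSCs, and in the fit that counts unnamed transcripts 6 were called higher in the RSCs and 2 higher in the SCPs.

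**Figure D5:**
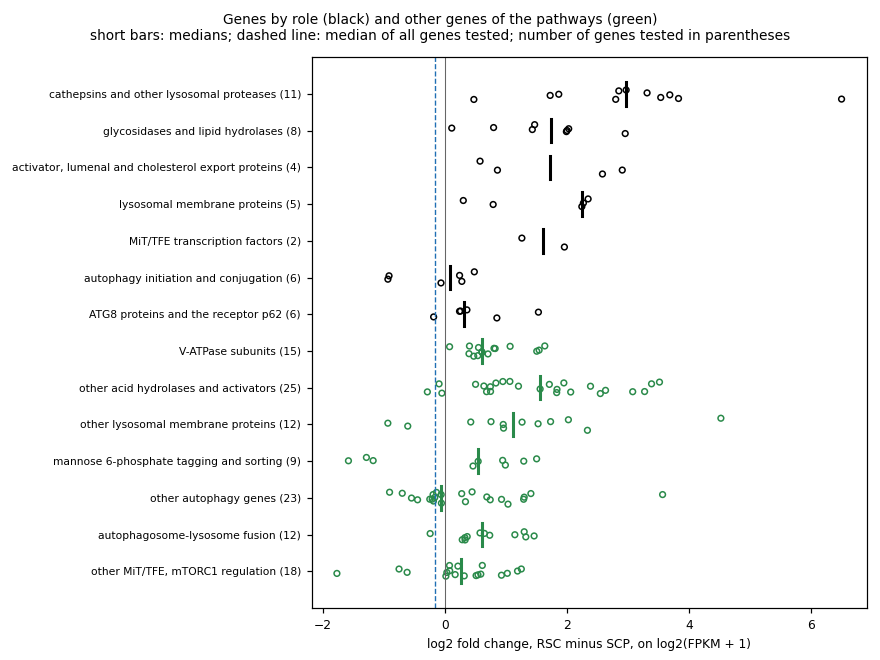
Log2 difference (RSC minus SCP, on log2(FPKM + 1)) of each tested gene, by role for the 42 genes (black) and by list for other genes of the pathways (green), with short bars at the medians and the number of genes tested in parentheses. Medians run from -0.06 for the other autophagy genes to 2.97 for the proteases, against -0.17 for all genes (dashed line).

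Most called differences held under the other settings tried. Of the 26 genes called higher in the RSCs, 23 were called under all 18 alternative settings. The other three were Gusb, Npc1 and Tfe3. After median-of-ratios scaling, which moved the median of all genes from -0.17 to 0.0053, 28 genes were called higher in the RSCs and Atg12 was no longer called.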

How the data were processed

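The authors prepared stranded mRNA libraries from 3 SCP and 3 RSC preparations. Per the submitters' processing notes, FastQC 0.11.2, TopHat2 2.1.0 and Cufflinks 2.2.1 were used, with the rn6 genome. The authors deposited for each sample a Cufflinks table with the FPKM of each transcript, its confidence bounds and its coverage, a signal from which relative depth was taken. Cufflinks scales FPKM to mapped fragments, so abundant globin RNA lowers other values of a sample. Absolute depth is unknown, and precision rests on 3 samples per group.

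FPKM of named transcripts were summed by symbol, leaving out 77 transcripts per table whose names had become dates. limma 3.58.1 in R 4.3.3 was fitted to log2(FPKM + 1) with a variance trend for the 13003 genes averaging 1 FPKM or more, two-sided, with Benjamini-Hochberg adjustment, and was tested on simulated data. Tables were handled with pandas 2.3.3. Gene spans are those of the tables on rn6. The labels name no batch. The 42 genes and all lists were chosen with earlier results of these data known. Values of all 6 samples are given for genes called with a log2 difference over 1, genes listed at 0 in a sample, the 5 ATG8 genes, Tfeb, Tfe3, Sqstm1 and the 2 highest genes, and elsewhere the 2 largest and 2 smallest called differences of a list. A few list genes are counted but not reported here by name. Atg12, the 1 gene called higher in the SCPs, is named with all values although its difference was under 1. The settings varied were the pseudocount (0.1), the filter (none, or 5 FPKM), the normalization (quantile, median-of-ratios), the variance trend (none), a block for the replicate number, the threshold (adjusted p), the samples (leaving out each in turn) and the transcripts counted (the highest of a gene, unnamed transcripts added to the gene of their locus, zeros left out and, added after seeing the data, the last 2 together).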

Additional observations from a re-analysis of the deposited data

Results flagged for a closer look

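Unnamed transcripts assembled at the locus of a gene hold signal outside the main measurement. For 8 of the 42 genes this signal was higher in every RSC sample than in any SCP sample. Only this direction was searched, and the share of all genes with such a pattern was not obtained. The unnamed mean FPKM of Ctsa was 368 in the RSCs and 31.4 in the SCPs. For Lgmn it was 161 against 21.2, and for Ctss 157 against 3.49. Map1lc3a had 87.8 FPKM in unnamed transcripts in the RSCs and 15.9 in the SCPs, more in the RSCs than in its named transcript. Ppt1 had 71.4 against 33.9 and Scarb2 34.6 against 17.7. Tpp1 was at 27.4 against 3.25 and Ctsc at 25.4 against 1.20. Ctsk and Tfe3 went the other way. Unnamed transcripts of Ctsk were at 2.80, 5.50 and 2.12 FPKM in the SCPs and 0 in each RSC sample. Those of Tfe3 were at 3.75, 5.20 and 1.82 FPKM against 0 in each RSC sample. Unnamed transcripts were assembled separately in each sample, and part of this signal can belong to overlapping genes.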

How the results depend on the processing

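Over the 18 alternative settings, 23 to 33 of the 42 genes were called higher in the RSCs, 13 to 18 were over 4-fold higher and the median log2 difference was 1.42 to 1.79. The number called higher in the SCPs was 1 in the reported fit. It was 0 after median-of-ratios scaling and with adjusted p under 0.01, 2 with unnamed transcripts added, with or without the zeros left out, and 0 to 1 when each sample was left out. For 25 genes no setting changed the call or the sign, and 7 genes changed sign in some setting, each among those not called. Ctsa fell to -0.57 and Psap to -0.23 with a pseudocount of 0.1. With each sample left out Ctsa ranged from -1.13 to 2.91, Ppt1 from -1.37 to 1.48, Psap from -0.97 to 4.50, Atg5 from -0.11 to 1.30 and Map1lc3a from -0.60 to 0.068. Each of these genes but Map1lc3a has a value listed at 0. Becn1 was 0.14 after median-of-ratios scaling and 0.038 with unnamed transcripts added, with or without the zeros left out. Map1lc3a was 0.017 and 1.12 in these settings, and Wipi1 was -0.40 by its highest transcript. The cause was not tested. With the replicate block, 24 genes were called higher in the RSCs and 1 higher in the SCPs, and 4275 of all genes were called in place of 5268. Deviations of same-numbered SCPs and RSCs correlated at 0.044, -0.0049 and 0.026 over genes, and those of differently numbered ones at -0.0476 to 0.0225. The study describes the sequencing as 3 sets of experiments. Whether same-numbered samples were prepared together cannot be told from these few weak correlations. Without counts, the sampling error of low values such as those of Tfeb could not be estimated.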
